A study of Mus musculus with 24 samples.

Results

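Nr1d1 and Nr1d2, the genes of the nuclear receptors REV-ERBα and REV-ERBβ, and Thra, the thyroid hormone receptor gene that overlaps Nr1d1 on the opposite strand, were followed through bulk RNA-seq of innate lymphoid cells (ILCs) that had been sorted out of small-intestinal lamina propria of mice. The genes were taken by symbol and are 3 of the 55487 genes of the count table, and each passed the filter on low counts with 21286 genes in all. The 24 libraries fall into 8 groups of 3. The group labelled DKO comes from mice that carry Vav1-Cre together with floxed Nr1d1 and Nr1d2, and the group labelled WT from littermates with the floxed alleles, all 8 to 12 weeks old. Vav1-Cre acts throughout the blood lineages, so other blood cells of DKO mice carry the deletion too. In each genotype 4 populations were sorted, labelled ILC1, NKp46, CCR6 and DN. The series title speaks of ILC1 and subsets of ILC3, and the sources used here do not spell out DN. Nor do they give the exons that were floxed, the time of day of the harvest, or whether each replicate is an animal of its own. The p-values therefore cover no more than the library-to-library spread, and that may be technical.

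REV-ERBα and REV-ERBβ are transcriptional repressors that bind heme and recruit the NCoR-HDAC3 corepressor. They compete with the activating ROR receptors for the same DNA elements and so repress the clock gene Arntl (BMAL1) and other genes of the circadian clock, among them Nr1d1 itself. Thra encodes thyroid hormone receptor α. Its splice form α2, which does not bind the hormone, ends in the exon that lies across the 3′ end of Nr1d1.

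The placement of the genes shows which counts can be mixed. On GRCm38, in GENCODE release 21, Nr1d1 (ENSMUSG00000020889) lies on the minus strand at chr11:98767932-98775333, with 8 exon blocks and 3077 exonic bases. Thra (ENSMUSG00000058756) lies on the plus strand at chr11:98740638-98769006, with 17 blocks and 4614 exonic bases. Nr1d2 (ENSMUSG00000021775) stands alone on the minus strand at chr14:18204054-18239127, with 8 blocks and 5409 exonic bases. The bodies of Nr1d1 and Thra overlap over 1075 bases, and their last exon blocks share 263 bases, chr11:98768157-98768419. These are 8.55% of the exonic bases of Nr1d1 and 5.70% of those of Thra. All 263 are coding in Thra and 197 are coding in Nr1d1. Of the 9 annotated Thra transcripts, Thra-201 spans all 263 bases and Thra-203 spans 130 of them, and no other Thra transcript reaches them. No further annotated gene overlaps an exon of the 3 genes. The 197 bases that are coding in both genes, chr11:98768223-98768419, are shown on the Nr1d1 strand because a read from them fits either gene where strand is not used. Capitals mark the 130 bases that Thra-203 holds too.
shared coding stretch of Nr1d1 and Thra: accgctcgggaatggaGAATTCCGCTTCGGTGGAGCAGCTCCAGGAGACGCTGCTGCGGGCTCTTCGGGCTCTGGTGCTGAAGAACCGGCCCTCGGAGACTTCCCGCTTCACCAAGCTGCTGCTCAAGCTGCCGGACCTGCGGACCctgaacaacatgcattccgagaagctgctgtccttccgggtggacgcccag

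The promoters of the REV-ERB genes are shown because the levels of both genes moved with genotype. The windows run from 250 bases before to 50 after the RefSeq start (GRCm38.p6), chr11:98775328-98775627 for Nr1d1 and chr14:18239057-18239356 for Nr1d2, both on the minus strand. Both strands were searched for AGGTCA and GGGTCA, the half-site cores of the shared REV-ERB and ROR element, for the E-box CACGTG of the BMAL1 dimers, and for TTATGNAA, the D-box core of DBP, TEF and HLF. The Nr1d2 window held AGGTCA, in capitals, with its first base at -77 from the start, and none of the other letters overlapping it. The Nr1d1 window held no match. AGGTCA was found in 16.3% of the 32851 mouse promoter windows, GGGTCA in 13.7%, CACGTG in 7.15% and TTATGNAA in 3.38%. A match in letters is a description and not a bound site.
Nr1d1 promoter: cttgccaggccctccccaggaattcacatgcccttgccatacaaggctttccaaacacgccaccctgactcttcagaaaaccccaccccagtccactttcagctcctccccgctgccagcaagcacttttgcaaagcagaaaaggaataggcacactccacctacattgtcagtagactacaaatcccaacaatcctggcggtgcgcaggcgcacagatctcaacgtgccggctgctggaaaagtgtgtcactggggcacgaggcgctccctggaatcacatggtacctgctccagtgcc
Nr1d2 promoter: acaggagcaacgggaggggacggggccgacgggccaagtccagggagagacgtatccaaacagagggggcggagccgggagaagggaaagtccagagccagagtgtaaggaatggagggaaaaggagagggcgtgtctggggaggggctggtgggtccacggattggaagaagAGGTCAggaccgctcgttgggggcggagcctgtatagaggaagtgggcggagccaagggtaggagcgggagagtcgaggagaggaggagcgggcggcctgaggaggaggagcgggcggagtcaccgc

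Libraries held from 12763228 to 84395154 gene counts. Values below are CPM, counts per 1000000 counts of a library, scaled by the trimmed mean of M values (TMM). WT ILC1 replicate 2 stood apart as the shallowest, with 84.1% of its counts on protein-coding genes, against 91.6% to 94.9% in the other libraries, and 11.1% on ribosomal RNA. The population labels name a pair of surface proteins. Ncr1, the gene of NKp46, averaged 1423 CPM in ILC1, 464 CPM in NKp46, 41.4 CPM in DN and 2.59 CPM in CCR6 of DKO-labelled libraries, against 1613, 824, 55.5 and 9.86 CPM in WT-labelled libraries in that order. Ccr6 averaged 766 CPM in CCR6 and 0.970 to 10.5 CPM in the other populations of DKO-labelled libraries, against 1399 CPM in CCR6 and 4.07 to 40.7 CPM in the others of WT-labelled libraries. The deletion could not be checked from these counts. They are summed over each whole gene, so exons outside a deleted part still count. Both targeted genes had higher counts in the libraries labelled DKO, as described next, and the directions given below rest on the labels. Vav1, whose promoter drives the Cre, averaged 227 to 248 CPM in the groups labelled DKO and 230.3 to 249.8 CPM in the groups labelled WT. It was called in 0 of the 4 populations by edgeR, DESeq2 and limma voom alike, with 0 at an unadjusted p under 0.05.

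Nr1d1 transcripts were higher in the libraries labelled DKO in all 4 populations, by 1.77-fold in NKp46, 2.61-fold in CCR6, 3.89-fold in DN and 5.07-fold in ILC1. In ILC1, Nr1d1 stood at 458, 484 and 515 CPM in libraries labelled DKO, against 104, 49.8 and 133 CPM in those labelled WT. In NKp46 it stood at 1002, 1161 and 1018 CPM in DKO-labelled libraries, against 623, 642 and 536 CPM in WT-labelled libraries. As fold changes these were the largest and the smallest of the 4 populations. In CCR6 it reached 1559, 1481 and 1458 CPM in DKO-labelled libraries, against 539, 584 and 598 CPM in WT-labelled libraries. In DN it reached 1485, 1772 and 1704 CPM in DKO-labelled libraries, against 386, 399 and 489 CPM in WT-labelled libraries. Within every population each library labelled DKO lay above each library labelled WT. The share of all genes that separate in this way is not given, here or for Nr1d2 and Thra below. With 3 against 3 libraries, such a separation gives an exact permutation p no smaller than 0.1. By the quasi-likelihood test of edgeR, Benjamini-Hochberg adjusted over every gene tested, the log2 fold change, DKO over WT, was 2.34 ± 0.21 (SE) in ILC1 (adjusted p = 8.8e-07). It was 0.82 ± 0.20 in NKp46 (edgeR adjusted p = 0.022), 1.39 ± 0.21 in CCR6 (edgeR adjusted p = 0.00014) and 1.96 ± 0.21 in DN (edgeR adjusted p = 2.4e-06). In ILC1 the call was lost when only the groups compared were fitted (log2 2.34, edgeR adjusted p = 0.081). In NKp46 it was lost when DKO NKp46 replicate 1 was left out (log2 0.85, edgeR adjusted p = 0.057) or DKO NKp46 replicate 2 (log2 0.72, edgeR adjusted p = 0.14). The NKp46 call was lost as well without WT NKp46 replicate 1, 2 or 3, at a log2 of 0.84, 0.87 and 0.74 and an edgeR adjusted p of 0.078, 0.060 and 0.12. Without WT ILC1 replicate 2 the ILC1 value was 2.04. In bulk samples, more cells that make a transcript and more transcript per cell cannot be told apart.

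**Figure D1:**
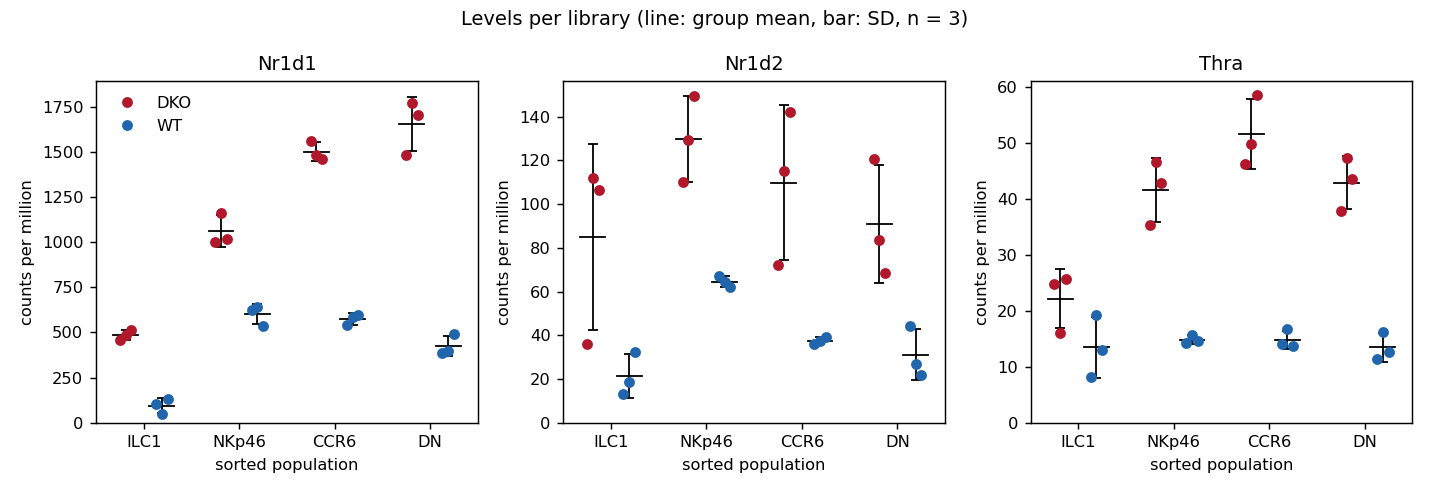
Levels of Nr1d1, Nr1d2 and Thra in CPM (y) by sorted population (x), with DKO-labelled libraries in red left of WT-labelled libraries in blue, 3 libraries per group, lines for group means and bars for the SD. DKO and WT points overlap in 1 panel position, Thra in ILC1.

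Nr1d2, the second targeted gene and the weaker expressed of the REV-ERB pair, was also higher in the libraries labelled DKO, and its replicates spread more widely. In ILC1 it stood at 36.1, 112 and 107 CPM in DKO-labelled libraries, against 12.96, 18.7 and 32.5 CPM in WT-labelled libraries. In NKp46 it stood at 110.0, 129 and 149 CPM in DKO-labelled libraries, against 67.1, 64.3 and 62.0 CPM in WT-labelled libraries. In both populations the lowest DKO-labelled library lay above the highest WT-labelled library. In CCR6 it stood at 72.1, 115 and 142 CPM in DKO-labelled libraries, against 35.9, 37.6 and 39.4 CPM in WT-labelled libraries. In DN it stood at 121, 83.4 and 68.6 CPM in DKO-labelled libraries, against 44.4, 27.0 and 22.0 CPM in WT-labelled libraries. The genotypes did not overlap in any population, although the lowest DKO-labelled library of ILC1, at 36.1 CPM, lay close to the highest WT-labelled library, at 32.5 CPM. The log2 fold change, DKO over WT, was 1.99 ± 0.37 (SE) in ILC1 (edgeR adjusted p = 0.0055), 1.55 ± 0.36 in CCR6 (edgeR adjusted p = 0.013) and 1.54 ± 0.37 in DN (edgeR adjusted p = 0.018). In NKp46 it was 1.01 with a 95% interval of 0.26 to 1.75, which missed the threshold after adjustment over all genes (edgeR adjusted p = 0.13). The call in CCR6 was lost without DKO CCR6 replicate 3 (log2 1.32, edgeR adjusted p = 0.086) and without WT CCR6 replicate 1, 2 or 3 (log2 1.51 to 1.58, edgeR adjusted p up to 0.066). The call in DN was lost without DKO DN replicate 1 (log2 1.30, edgeR adjusted p = 0.11), WT DN replicate 2 (log2 1.46, edgeR adjusted p = 0.099) or WT DN replicate 3 (log2 1.36, edgeR adjusted p = 0.12). Without a filter on low counts neither passed, at an edgeR adjusted p of 0.070 each. Fitting only the groups compared ended the call in ILC1 (log2 1.98, edgeR adjusted p = 0.51) and gave one in NKp46 (log2 1.02, edgeR adjusted p = 0.0029).

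Thra was about as low in every population labelled WT and higher in the NKp46, CCR6 and DN libraries labelled DKO. In NKp46 it stood at 35.3, 46.5 and 42.9 CPM in DKO-labelled libraries, against 14.3, 15.7 and 14.6 CPM in WT-labelled libraries. In CCR6 it stood at 46.3, 49.8 and 58.5 CPM in DKO-labelled libraries, against 14.1, 16.7 and 13.8 CPM in WT-labelled libraries. In DN it stood at 37.9, 47.2 and 43.5 CPM in DKO-labelled libraries, against 11.3, 16.3 and 12.7 CPM in WT-labelled libraries. In these 3 populations the genotypes did not overlap. In ILC1 the genotypes overlapped, at 24.7, 16.1 and 25.6 CPM in DKO-labelled libraries and 8.22, 19.2 and 12.95 CPM in WT-labelled libraries. The log2 fold change, DKO over WT, was 1.49 ± 0.24 (SE) in NKp46 (edgeR adjusted p = 0.00056), 1.79 ± 0.25 in CCR6 (edgeR adjusted p = 4.8e-05) and 1.67 ± 0.25 in DN (edgeR adjusted p = 0.00016). In ILC1 it was 0.73 with a 95% interval of 0.22 to 1.23, short of the threshold (edgeR adjusted p = 0.19). Without WT ILC1 replicate 2, the library that stood apart, the ILC1 value was 1.06 and passed (edgeR adjusted p = 0.021).

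These counts read against the background as follows. In ILC1, 2 of the 3 genes were called higher. Of all genes tested 1.06% were called there, 0.78% as higher in DKO and 0.277% as lower. In NKp46, Nr1d1 and Thra were called higher, against 4.16% of all genes called, 1.99% as higher and 2.17% as lower. In CCR6 all 3 genes were called higher, against 3.97% called, 1.93% as higher and 2.04% as lower. In DN all 3 were called higher, against 2.83% called, 1.49% as higher and 1.34% as lower. Thra in ILC1 and Nr1d2 in NKp46 had positive effects too but were not called. The median log2 fold change of all genes tested was between -0.044 and 0 in each population. The 4 comparisons share no libraries, but they come from a single fit with a shared estimate of the spread. Whether they share animals is not given, so they cannot be taken as independent repeats.

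**Figure D2:**
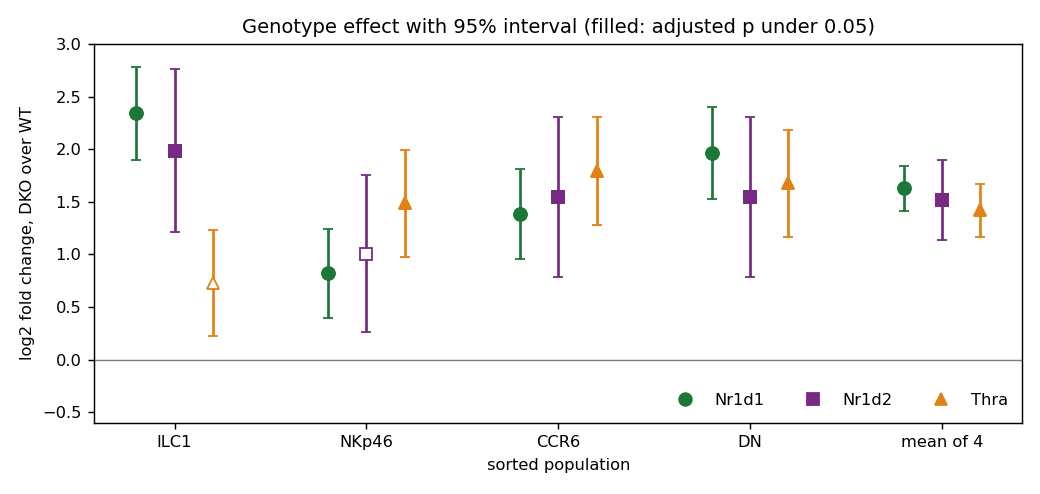
Log2 fold change, DKO over WT, of Nr1d1, Nr1d2 and Thra (y) in each sorted population and as the mean of the 4 populations (x), with 95% intervals and filled marks where edgeR's adjusted p was under 0.05. Open marks are Nr1d2 in NKp46, at 1.01, and Thra in ILC1, at 0.73.

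Averaged over the 4 populations, the log2 effect was 1.63 ± 0.10 (SE) for Nr1d1 (edgeR adjusted p = 1.6e-10), 1.52 ± 0.18 for Nr1d2 (edgeR adjusted p = 3.2e-06) and 1.42 ± 0.12 for Thra (edgeR adjusted p = 1.9e-08), where 10.8% of all genes were called, 4.81% as higher and 5.99% as lower. All 3 thus differed by a factor near 3, with 3.09-fold for Nr1d1, 2.87-fold for Nr1d2 and 2.68-fold for Thra. A two-sided exact permutation test of log2 CPM over samples, with genotypes exchanged within each population, gave p = 1.25e-05 for Nr1d1 and for Nr1d2, the smallest that 160000 splits allow, and p = 2.5e-05 for Thra. The exchange took each population on its own, as if same-numbered libraries came from different animals. The main edgeR fit, which used no block, did so too, and its SE and p of the mean effects rest on it. The sources used here do not settle whether same-numbered libraries share animals. If they share animals, the genotypes stand 3 against 3, where no exact p under 0.1 can arise. For the genotype effect among populations, Nr1d1 alone of the 3 varied past the threshold (edgeR adjusted p = 0.022, where 1.37% of genes were called). Its effect was larger in ILC1 than in NKp46 by 1.52 ± 0.29 on the log2 scale (edgeR adjusted p = 0.017, 0.559% of genes called), and the other 5 differences between populations did not pass in edgeR. DESeq2 and limma voom also called ILC1 minus CCR6 (log2 0.94 in both, adjusted p = 0.042 and 0.036) and NKp46 minus DN (log2 -1.15 and -1.16, adjusted p = 0.0083 and 0.0042). Of all genes, edgeR called 1.17% for ILC1 minus CCR6 and 0.343% for ILC1 minus DN. It called 0.423% for NKp46 minus CCR6, 0.498% for NKp46 minus DN and 0.127% for CCR6 minus DN. The shares that DESeq2 and limma voom called in these contrasts are not given. For Nr1d1 the ILC1 minus CCR6 difference passed without WT ILC1 replicate 3 (log2 1.29, edgeR adjusted p = 0.014), and NKp46 minus DN passed without WT ILC1 replicate 2 or 3 (log2 -1.15 each, edgeR adjusted p up to 0.034). That omnibus call was close to the threshold. It was lost without DKO ILC1 replicate 2 or 3, DKO NKp46 replicate 1 or 3, WT NKp46 replicate 1 or 2, or DKO CCR6 replicate 2, at an edgeR adjusted p of 0.050 to 0.066. The difference of ILC1 and NKp46 was lost without DKO NKp46 replicate 1 (log2 1.503, edgeR adjusted p = 0.050). For Nr1d2 and Thra no difference among populations was detected (edgeR adjusted p = 0.76 for Nr1d2 and 0.30 for Thra). The Thra effect in ILC1 minus that in CCR6 was -1.07 (95% interval -1.77 to -0.36, edgeR adjusted p = 0.17), which passed when WT ILC1 replicate 1 was left out (log2 -1.32, edgeR adjusted p = 0.031).

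The order of the populations differed from gene to gene. In DKO-labelled libraries Nr1d1 averaged 486 CPM in ILC1, 1060.4 CPM in NKp46, 1499 CPM in CCR6 and 1653 CPM in DN. In WT-labelled libraries it averaged 95.6 CPM in ILC1, 425 CPM in DN, 574 CPM in CCR6 and 601 CPM in NKp46. ILC1 was thus lowest in both genotypes, and the mean levels of the other 3 stood in opposite order in the genotypes. Among WT-labelled libraries ILC1 lay below NKp46 by a log2 value of -2.65, below CCR6 by -2.58 and below DN by -2.15, each called (edgeR adjusted p up to 3.5e-07, with 10.7%, 19.3% and 7.61% of all genes called in these contrasts). Among DKO-labelled libraries the same contrasts were -1.13, -1.63 and -1.77 (edgeR adjusted p up to 0.0012, with 4.77%, 11.9% and 7.24% of genes called). Among NKp46, CCR6 and DN edgeR called 0 of the 6 contrasts within a genotype (adjusted p of 0.185 or more), with 4 at an unadjusted p under 0.05, and DESeq2 called 0. Limma voom called those 4, with DKO NKp46 below DKO CCR6 (log2 -0.50, adjusted p = 0.0081) and DKO DN (log2 -0.64, adjusted p = 0.0034), and WT DN below WT NKp46 and WT CCR6 (log2 0.52 and 0.45 for the others over WT DN, adjusted p = 0.036 and 0.027). Of all genes, edgeR called 6.23% between NKp46 and CCR6, 2.97% between NKp46 and DN and 5.85% between CCR6 and DN in WT-labelled libraries. Among DKO-labelled libraries edgeR called 4.8%, 0.723% and 1.79% in the same contrasts. The shares that limma voom called are not given. Without WT ILC1 replicate 2, edgeR called WT NKp46 against WT DN (log2 0.49) and WT CCR6 against WT DN (log2 0.43). It also called DKO NKp46 against DKO CCR6 (log2 -0.51) and against DKO DN (log2 -0.66), with edgeR adjusted p up to 0.016 for the 4. That library is in none of these contrasts. The fit without it also called more genes for DKO against WT, 1388 in NKp46 and 918 in DN, against 885 and 602 in the main fit. The share of all genes that this fit called in the 4 contrasts is not given.

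Nr1d2 averaged 85.0 ± 42.4 CPM in ILC1, 129.6 ± 19.7 CPM in NKp46, 109.8 ± 35.3 CPM in CCR6 and 90.9 ± 26.8 CPM in DN of DKO-labelled libraries (SD, n = 3 each), and these did not differ past the threshold. In edgeR, DESeq2 and limma voom 0 of its 6 DKO pairs were called, with 0 at an unadjusted p under 0.05. In WT-labelled libraries it averaged 21.4 ± 10.1 CPM in ILC1, 64.5 ± 2.57 CPM in NKp46, 37.6 ± 1.77 CPM in CCR6 and 31.1 ± 11.8 CPM in DN (SD, n = 3 each). Of its 6 WT pairs edgeR and limma voom called 1, ILC1 against NKp46, at a log2 value of -1.59 (edgeR adjusted p = 0.0064), and DESeq2 called NKp46 against DN as well (log2 1.06, adjusted p = 0.049). Thra averaged 22.1 ± 5.26 CPM in ILC1, 41.6 ± 5.74 CPM in NKp46, 51.5 ± 6.28 CPM in CCR6 and 42.9 ± 4.72 CPM in DN of DKO-labelled libraries (SD, n = 3 each). In WT-labelled libraries it averaged 13.5 ± 5.51, 14.8 ± 0.740, 14.9 ± 1.61 and 13.4 ± 2.56 CPM in the same order (SD, n = 3 each). In edgeR, DESeq2 and limma voom 0 of the 6 WT pairs of Thra were called, with 0 at an unadjusted p under 0.05. Among DKO-labelled libraries Thra was lower in ILC1 than in NKp46 (log2 -0.91, edgeR adjusted p = 0.028), CCR6 (log2 -1.22, edgeR adjusted p = 0.0011) and DN (log2 -0.96, edgeR adjusted p = 0.014). Of these the NKp46 contrast was lost without DKO ILC1 replicate 1 (-0.98) or 2 (-0.70) or DKO NKp46 replicate 2 (-0.80) or 3 (-0.88), and the DN contrast without DKO ILC1 replicate 2 (-0.78) or DKO DN replicate 2 (-0.88). Any difference among the 4 populations passed in WT-labelled libraries for Nr1d1 (edgeR adjusted p = 3.0e-08) and Nr1d2 (0.015) but not for Thra (0.92), where 19.1% of all genes were called. For Nr1d2 it was lost without a filter on low counts (edgeR adjusted p = 0.053) and in limma voom (adjusted p = 0.061, or 0.055 with a random block by genotype and number). In DKO-labelled libraries it passed for Nr1d1 (edgeR adjusted p = 9.6e-06) and Thra (0.0075, or 0.061 without DKO ILC1 replicate 2) but not for Nr1d2 (0.63), where 11.6% of genes were called.

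Levels of different genes can be compared per exonic length. In CPM per kilobase of exon, the level of Nr1d1 averaged 158 for ILC1, 345 for NKp46, 487 for CCR6 and 537 for DN of the libraries labelled DKO. In the libraries labelled WT this level averaged 31.1 for ILC1, 195 for NKp46, 187 for CCR6 and 138 for DN. Nr1d1 was the most abundant of the 3 genes in all 8 groups. Its level per length was 10.1 to 32.0 times that of Nr1d2 in DKO-labelled groups and 7.85 to 26.8 times in WT-labelled groups, lowest in ILC1 of both genotypes. Against Thra it was 32.9 to 57.8 times higher per length in DKO-labelled groups and 10.7 to 60.7 times in WT-labelled groups.

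Nr1d1 and Thra share bases, and the sources used here do not say whether the counting used strand, so reads of one in the shared stretch could have been counted for the other or set aside. If the Nr1d1 counts of a library were spread evenly over its exons, the 263 shared bases would hold 5443 to 8102 of them in DKO CCR6, where Thra had 2554 to 2812 counts in all, and 2428 to 4245 in WT CCR6, where Thra had 743 to 1419. This share was 1.58 to 3.35 times the whole Thra count in DKO-labelled groups. In WT-labelled groups it was 2.09 to 3.72 times the Thra count in NKp46, CCR6 and DN, and 0.222 to 1.08 times in ILC1. The reverse share, Thra counts spread evenly, would add 0.145% to 0.307% to Nr1d1 counts in DKO-labelled groups and 0.131% to 2.20% in WT-labelled groups. The part of the overlap in the Thra values was not tested.

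The ratio within a library, which needs no scaling between libraries, had no common direction over the populations. In ILC1 there were 53.9, 33.2 and 49.7 Thra counts per 1000 Nr1d1 counts in DKO-labelled libraries, against 79.1, 385 and 97.4 in WT-labelled libraries. In NKp46 there were 35.2, 40.1 and 42.1 in DKO-labelled libraries, against 22.95, 24.4 and 27.1 in WT-labelled libraries. DKO-labelled libraries were thus lower in the first and higher in the second. In CCR6 there were 29.7, 33.6 and 40.1 in DKO-labelled libraries, against 26.2, 28.6 and 22.99 in WT-labelled libraries. In DN there were 25.5, 26.7 and 25.5 in DKO-labelled libraries, against 29.3, 40.8 and 26.0 in WT-labelled libraries. The ratio was thus lower in every DKO-labelled library of ILC1 and higher in every DKO-labelled library of NKp46 and CCR6 than in WT-labelled libraries. The log2 difference, DKO minus WT, was -1.69 in ILC1, 0.66 in NKp46 and 0.41 in CCR6 (p = 0.1 each in a two-sided exact permutation test, the smallest that 3 against 3 libraries allow) and -0.28 in DN (exact permutation p = 0.2). Without WT ILC1 replicate 2, the library at 385, the ILC1 difference was -0.98, and that in DN was -0.092 without WT DN replicate 2. Over all 4 populations it was -0.23 (exact permutation p = 0.50), or -0.048 without WT ILC1 replicate 2. The Nr1d2 counts per 1000 Nr1d1 counts ranged from 40.3 to 232 in DKO-labelled libraries and from 45.0 to 376 in WT-labelled libraries. The log2 difference was -0.16 over all populations (exact permutation p = 0.48), and the genotypes overlapped in each of them.

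**Figure D3:**
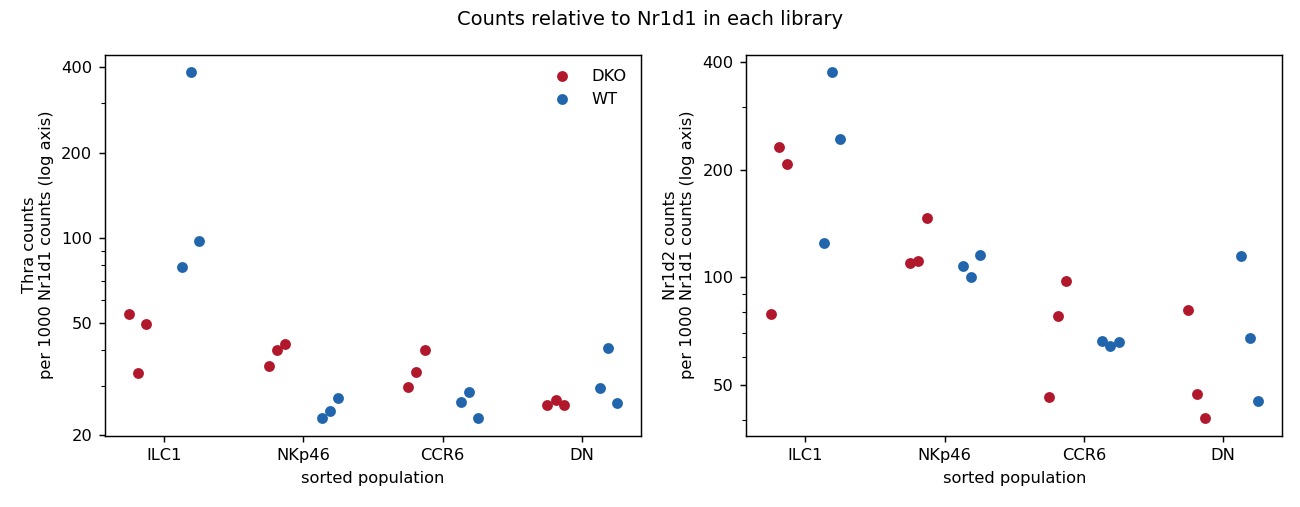
Thra counts (left) and Nr1d2 counts (right) per 1000 Nr1d1 counts in each library (y, log axes) by sorted population (x), DKO in red left of WT in blue. The DKO ILC1 libraries reach at most 53.9 for Thra, against 79.1 to 97.4 in 2 WT ILC1 libraries and 385 in replicate 2.

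In edgeR, genes next to the pair were called once in a single population. Of 17 protein-coding genes within 200 kb of Nr1d1 and Thra, 11 were tested, and Ikzf3, the gene of the lymphoid factor Aiolos at a distance of 195 kb, was called in 1 population, CCR6 (log2 1.09 ± 0.17, edgeR adjusted p = 0.00025), where 3.97% of all genes were called. DESeq2 and limma voom each called 2 of the 11 in CCR6, with 2 at an unadjusted p under 0.05 in edgeR. In ILC1, NKp46 and DN edgeR called 0 of the 11, with 2, 1 and 0 at an unadjusted p under 0.05, DESeq2 0, 1 and 0, and limma voom 0 in each. In the mean over populations, where 10.8% of all genes were called, Ikzf3 was higher (log2 0.57, edgeR adjusted p = 5.3e-05) and Ormdl3, at 153 kb, was lower (log2 -0.33, edgeR adjusted p = 0.043), a call lost in 20 of the 24 fits that left out a library. The mean effects of the 11 genes ran from -0.33 to 1.01 in log2, the highest for Zpbp2, which had an SE of 0.55 and was not called, with 0.037 for Msl1, a subunit gene of a histone acetyltransferase complex 20.2 kb from Nr1d1, and 0.046 for Rara, the retinoic acid receptor α gene 152 kb away. Med24, a Mediator subunit gene, is the nearest to Thra at 11.2 kb and was not called in any population. Around Nr1d2, edgeR called 0 of 4 neighbours in each population and in the mean, with 1 in NKp46 and 3 in the mean at an unadjusted p under 0.05. DESeq2 called 1 in NKp46 and 3 in the mean, and limma voom 1 in the mean. Their mean effects were 0.26 for the ribosomal protein gene Rpl15, -0.30 for Nkiras1 and -0.25 for the ubiquitin conjugase gene Ube2e1. The mean effect passed for Rpl15 without WT ILC1 replicate 1 (0.31), DKO NKp46 replicate 3 (0.29) or DKO CCR6 replicate 3 (0.28) and for Ube2e1 without WT ILC1 replicate 2 (-0.30). Thrb, the thyroid hormone receptor β gene at 166 kb from Nr1d2, had a mean effect of -0.17 with an SE of 0.95.

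**Figure D4:**
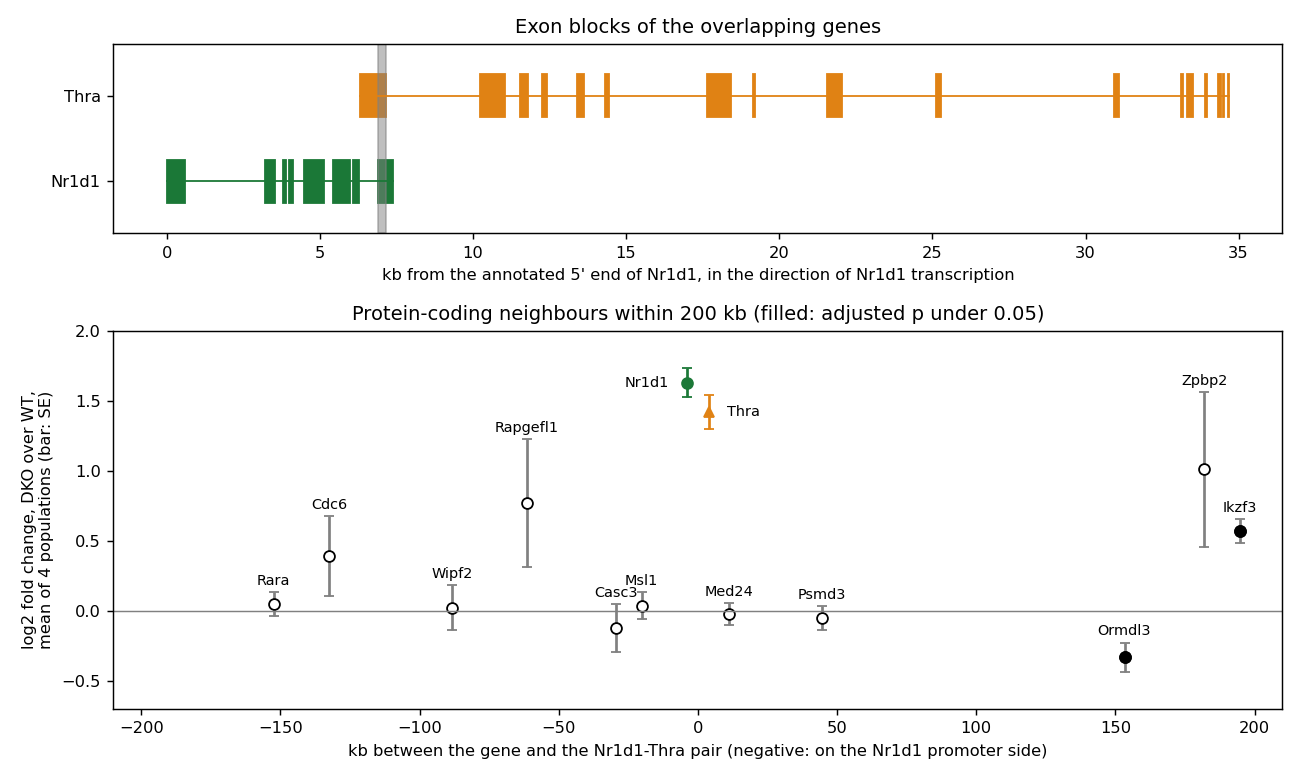
Upper panel, exon blocks of Nr1d1 and Thra in kb from the annotated 5′ end of Nr1d1 (x), with the 263 shared bases in grey. Lower panel, mean log2 fold change, DKO over WT, with SE (y) of the 11 tested neighbours by distance in kb (x), filled where edgeR's adjusted p was under 0.05. Nr1d1, at 1.63, and Thra, at 1.42, are drawn side by side at the centre and stand above the neighbours.

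REV-ERB proteins repress by way of cofactors, and their genes were not called in any single population. Among 5 genes of the corepressor complex (Ncor1, Hdac3, Tbl1x, Tbl1xr1 and Gps2) edgeR called 0 in each population, with 1 in ILC1 and 1 in DN at an unadjusted p under 0.05, and DESeq2 and limma voom called 0. In the mean over populations 1 was lower, Tbl1xr1 (log2 -0.44, edgeR adjusted p = 0.046), and it lost the call in 19 of the 24 fits that left out a library. Among 5 genes of heme supply (Alas1, Fech, Hmox1, Hmox2 and Ppargc1a) edgeR, DESeq2 and limma voom called 0 in each population, with 1 each in ILC1 and NKp46 at an unadjusted p under 0.05. The mean effect was called for Hmox1, the heme-degrading enzyme gene (log2 -1.46, edgeR adjusted p = 0.026), and lost in 8 of the 24 fits, with an effect of -1.25 without WT NKp46 replicate 3. Among 6 genes whose products degrade or phosphorylate REV-ERBα (Fbxw7, Huwe1, Siah2, Gsk3b, Csnk1d and Csnk1e) each of the 3 tools called 0 per population, with 0 at an unadjusted p under 0.05. In the mean over populations edgeR and limma voom called 0 and DESeq2 1, with 1 at an unadjusted p under 0.05.

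Genes of the clock, many of them REV-ERB targets in other mouse tissues, were called higher in the libraries labelled DKO in every population. The lists were chosen with earlier results of these samples known, so their direction is no independent evidence. Of the 8 clock repressors tested, 2 were higher for ILC1, 4 for NKp46, 5 for CCR6 and 4 for DN, and 0 were lower, with a median log2 effect of 0.42, 1.39, 1.94 and 1.97 in that order, where the medians of all genes were between -0.044 and 0. Of all genes 0.78%, 1.99%, 1.93% and 1.49% were called higher in that order, and 0.277%, 2.17%, 2.04% and 1.34% lower. Without WT ILC1 replicate 2 the count of clock repressors in DN was 5 and the others were as given. Ciart, a repressor of the BMAL1-CLOCK dimer, had log2 effects of 3.04 for ILC1, 1.84 for NKp46, 2.30 for CCR6 and 2.69 for DN (edgeR adjusted p up to 9.2e-05). Per3, a period gene, had 2.07, 2.03, 3.25 and 3.01 in the same order (edgeR adjusted p up to 0.00024). Cry1, a cryptochrome gene, was called higher in NKp46 (log2 0.92, edgeR adjusted p = 0.048), a call lost in 18 of the 24 fits that left out a library. Cry1 was also called higher in CCR6 (log2 1.58, edgeR adjusted p = 0.00055) and DN (log2 1.25, edgeR adjusted p = 0.0065, but 1.12 and 0.053 without WT DN replicate 3).

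Bhlhe41, the gene of the clock repressor DEC2, differed in its genotype effect between populations (edgeR adjusted p = 7.0e-07). It averaged 89.9 ± 25.2 CPM in NKp46, 270.1 ± 19.8 CPM in CCR6 and 209.6 ± 9.85 CPM in DN of DKO-labelled libraries, against 1.36 ± 0.610, 0.722 ± 0.320 and 0.538 ± 0.196 CPM in WT-labelled libraries of these populations (SD, n = 3 each). In ILC1 it stood at 2.06, 0.868 and 3.94 CPM in DKO-labelled libraries, against 1.16, 4.26 and 1.73 CPM in WT-labelled libraries, and the genotypes overlapped. The log2 effect was 6.07 in NKp46, 8.57 in CCR6 and 8.60 in DN (edgeR adjusted p up to 1.2e-07), against 0.11 in ILC1 (edgeR adjusted p = 0.95). Thra had its smallest effect in ILC1 as well, and Nr1d1 its largest.

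Of the 4 clock output genes, 2 were higher for ILC1, 3 for NKp46, 4 for CCR6 and 4 for DN, with median log2 effects of 1.64, 2.40, 3.18 and 2.54. The shares of all genes called higher were 0.78%, 1.99%, 1.93% and 1.49% in the same order. Without WT ILC1 replicate 2 the ILC1 count of output genes was 3. Dbp, the gene of a D-box activator, had log2 effects of 2.22 for ILC1, 2.78 for NKp46, 3.21 for CCR6 and 3.68 for DN (edgeR adjusted p up to 0.0047). Hlf, a gene of the same family, had effects of 1.99, 2.66, 3.69 and 2.67 in the same order (edgeR adjusted p up to 0.0019). Tef, the remaining gene of that family, rose in NKp46 (log2 2.14), CCR6 (log2 3.16) and DN (log2 2.42, edgeR adjusted p up to 0.0011 for the 3), and its effect in ILC1 was 1.28, which passed without DKO ILC1 replicate 1 (log2 1.68, edgeR adjusted p = 0.0065). Nfil3, the gene of the repressor that competes for D-boxes, was called higher in CCR6 (log2 1.29, edgeR adjusted p = 0.00069) and DN (log2 1.13, edgeR adjusted p = 0.0033). Of 5 clock activators, edgeR called 1 for ILC1, 2 for NKp46, 1 for CCR6 and 1 for DN, each higher, with median log2 effects of 0.19, 0.44, -0.011 and 0.43 in the same order. The shares of all genes called higher are those given for the output genes. Npas2, a partner of BMAL1, was higher throughout, at a log2 effect of 2.23 for ILC1, 2.52 for NKp46, 2.62 for CCR6 and 2.88 for DN (edgeR adjusted p up to 0.019), and in ILC1 it lost the call without DKO ILC1 replicate 3 (log2 1.996, edgeR adjusted p = 0.087). Rora, a ROR receptor gene, was called in NKp46 (log2 0.37, edgeR adjusted p = 0.049), a call lost in 20 of the 24 fits that left out a library. Arntl, the classical REV-ERB target, was called in the mean over populations (log2 0.49, edgeR adjusted p = 0.022, but 0.45 and 0.054 without DKO NKp46 replicate 2).

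**Figure D5:**
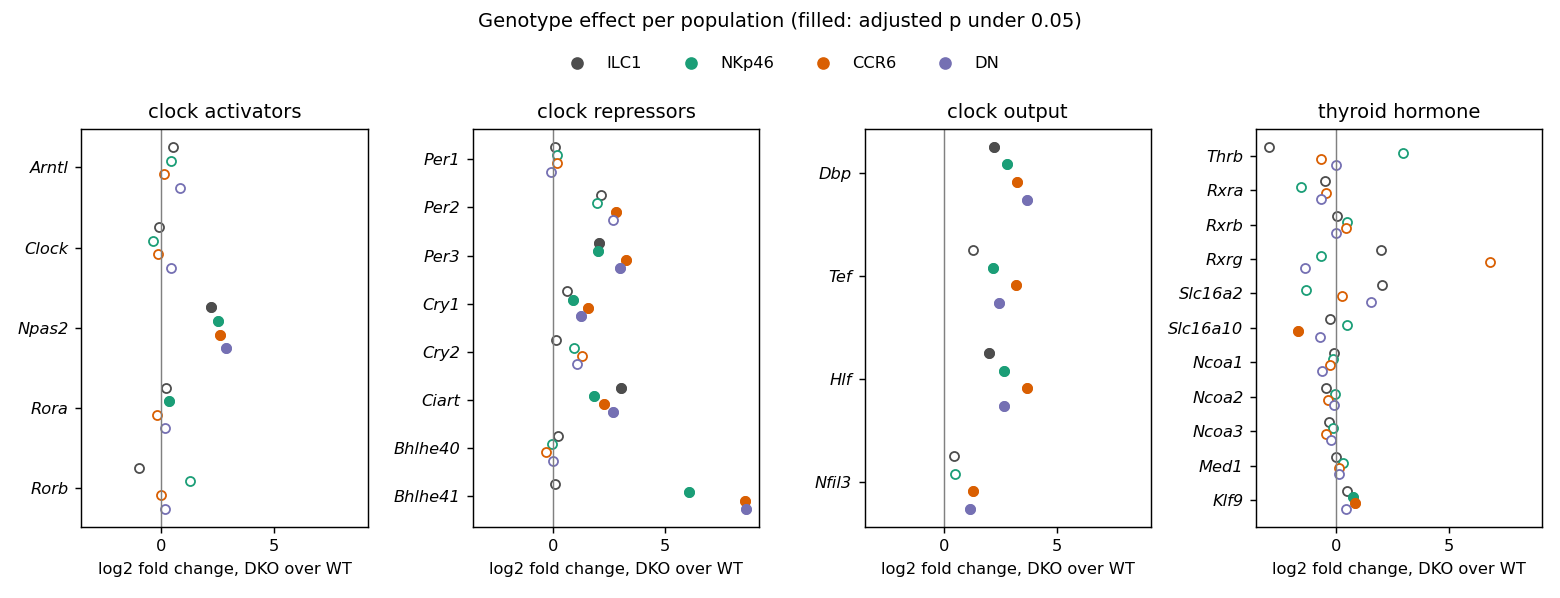
Log2 fold change, DKO over WT (x), of the tested genes (rows) of 4 lists (panels) in ILC1, NKp46, CCR6 and DN, filled where edgeR's adjusted p was under 0.05. Dbp, Hlf, Ciart, Per3 and Npas2 are filled at positive values in all 4 populations, Bhlhe41 in 3, and the thyroid hormone genes are mostly open.

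Of the thyroid hormone pathway, in which Thra acts, edgeR called at most 2 tested genes in a population. Among 16 genes of hormone entry, activation, partners, coactivators and targets, 11 were tested, since the other 5 (Dio1, Dio2, Dio3, Hr and Thrsp) had too few counts. Called genes numbered 0, 1, 2 and 0 for ILC1, NKp46, CCR6 and DN, where 1.06%, 4.16%, 3.97% and 2.83% of all genes were called, with median log2 effects of -0.092, -0.038, -0.25 and -0.10. Without WT ILC1 replicate 2 they numbered 1, 2, 2 and 1 of 12 tested. At an unadjusted p under 0.05 there was 1 in ILC1 and there were 2 in DN, DESeq2 called 0 in both, and limma voom called 0 in ILC1 and 2 in DN. In NKp46 and CCR6 there were 3 and 4 at an unadjusted p under 0.05. There DESeq2 called 2 and 3, and limma voom 1 in each. Klf9, a hormone target gene and a clock output gene as well, was higher in NKp46 (log2 0.74, edgeR adjusted p = 0.0049) and CCR6 (log2 0.86, edgeR adjusted p = 0.00089). Its effects were 0.48 in ILC1 and 0.45 in DN, which passed without WT ILC1 replicate 2 (log2 0.70 and 0.46, edgeR adjusted p = 0.0088 and 0.032). Slc16a10, a thyroid hormone transporter gene, was lower in CCR6 (log2 -1.70, edgeR adjusted p = 0.0095) and lost the call without DKO CCR6 replicate 2 (-1.56) or 3 (-1.47) or WT CCR6 replicate 1 (-1.41). Rxra, the gene of a dimer partner, was lower in the mean over populations (log2 -0.79, edgeR adjusted p = 0.018).

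By likeness of pattern, 5 genes were named per member, those with the highest Pearson's r of log2 CPM with it over the 24 libraries. They were taken from 10201 tested genes that reach a mean of 5 CPM in a group. Predicted genes (Gm and Rik names) were left out beforehand, and the members were not ranked. With both genotypes in 1 correlation, the difference between genotypes enters r. So r within each genotype is given for the first gene of each member, and for all 5 genes of Thra. For Nr1d1 these were Dlc1 (0.975), Pfkl (0.963), Prdx4 (0.959), Impg1 (0.959) and Adgrg3 (0.958). Dlc1, a RhoGAP gene, had r = 0.944 over the 12 DKO-labelled libraries and 0.976 over the 12 WT-labelled libraries. For Nr1d2 they were Itpk1 (0.914), Rsad1 (0.894), Zfand6 (0.882), Sema4b (0.868) and Rnf144b (0.865). Itpk1, an inositol phosphate kinase gene, had r = 0.702 over DKO and 0.900 over WT-labelled libraries. For Thra they were Npas2 (0.943), Crybb2 (0.942), Bhlhe41 (0.938), Rnf144b (0.938) and Itsn1 (0.934). Npas2 had r = 0.970 over DKO and 0.828 over WT-labelled libraries. Bhlhe41 had r = 0.949 over DKO but 0.232 over WT-labelled libraries. Rnf144b had 0.847 and 0.793, and Itsn1 0.939 and 0.742, in that order. Crybb2, a lens crystallin gene, had r = 0.935 over DKO but 0.061 over WT-labelled libraries, where 10 of the 12 held 0 counts of it and the others 2 and 13. It had 164 to 434 counts per library in DKO ILC1, 3269 to 4918 in DKO NKp46, 12638 to 21613 in DKO CCR6 and 11537 to 17484 in DKO DN. Among the members themselves, r between Nr1d1 and Thra was 0.88 over DKO-labelled libraries, and 0.87 to 0.90 with each library left out in turn. Over WT-labelled libraries it was 0.12, and it turned on single libraries of WT ILC1, at 0.74 without replicate 2, the one that stood apart, and -0.36 without replicate 1. Between Nr1d1 and Nr1d2 it was 0.25 over DKO-labelled libraries, or -0.31 without DKO ILC1 replicate 1, and 0.72 over WT-labelled libraries, with 0.63 to 0.80 when each was left out. Between Nr1d2 and Thra it was 0.27 over DKO-labelled libraries, or -0.013 without DKO ILC1 replicate 1, and 0.34 over WT-labelled libraries, or -0.25 without WT ILC1 replicate 1 and 0.63 without WT ILC1 replicate 2. These values describe libraries that also share their populations.

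Markers of other cells were summed per library beside these results. The 10 T cell genes summed to 1349 to 1554 CPM in DKO DN, against 3010.0 to 3182 CPM in WT DN. In DN edgeR called 7 of the 10 lower, where 1.34% of all genes were called lower. It called 1 of the T cell genes lower in ILC1, 2 lower in CCR6 and 1 higher in NKp46. The matching shares of all genes were 0.277%, 2.04% and 1.99%. In the other populations the T cell sums were 702 to 1193 CPM in DKO-labelled groups and 716 to 1520 CPM in WT-labelled groups. The 6 myeloid genes summed to 60.3 to 81.3 CPM in DKO ILC1, against 173 to 383 CPM in WT ILC1, and stayed at or under 21.6 CPM in the other DKO-labelled groups and 38.2 CPM in the other WT-labelled groups. In CCR6 they did not overlap, at up to 11.4 CPM in DKO-labelled libraries, against up to 26.4 CPM in WT-labelled libraries. The 4 epithelial genes summed to at most 64.5 CPM in DKO and 65.5 CPM in WT-labelled libraries, and Vil1 was at 0 in DKO NKp46. The 4 stromal genes summed to 138 to 141 CPM in DKO NKp46, against 107 to 124 CPM in WT NKp46, and overlapped in the other populations, at 112 to 166 CPM in DKO and 108 to 198 CPM in WT-labelled libraries, and Pdgfra was at 0 in WT NKp46 and WT DN. The 5 B and plasma cell genes summed to 40.5 to 55.7 CPM in DKO CCR6, against 99.1 to 196 CPM in WT CCR6, and to 75.6 to 156 CPM in DKO ILC1, against 59.1 to 76.4 CPM in WT ILC1. The ILC1 ranges overlapped narrowly. In NKp46 and DN the genotypes overlapped as well, at 47.6 to 143 CPM in DKO-labelled and 88.9 to 142 CPM in WT-labelled libraries. Of 7 sorting and lineage genes, edgeR called 1 for NKp46, 3 for CCR6 and 2 for DN, each lower, and the NKp46 count was 2 without WT ILC1 replicate 2. Of all genes 2.17%, 2.04% and 1.34% were called lower in these populations. For ILC1 edgeR, DESeq2 and limma voom called 0 of the 7, with 3 at an unadjusted p under 0.05. The part of these shifts in the values of Nr1d1, Nr1d2 and Thra was not tested.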

How the data were processed

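RNA-seq counts of 24 libraries were analysed, made per the labels from sorted cells with a low-input SMARTer kit that amplifies full-length cDNA. The authors deposited raw counts of reads for each Ensembl gene as whole numbers. Per the submitters' processing notes the tools were STAR 2.7.9a, Salmon 1.5.2, featureCounts 2.0.3 of Subread, R 4.1 and DESeq2, on mm10. Neither the tool behind the count table nor its strand setting is stated (not given in the sources used here), and no molecular identifiers are named. Totals were 12763228 to 84395154 counts per library. Repeated rows of an ID were dropped, leaving 55487 genes. There were 0 columns left unused.

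With edgeR 4.0.16 in R 4.3.3, libraries were scaled by TMM, genes were filtered by group, and a robust quasi-likelihood model with 1 mean per group was fitted to all 24 libraries (21286 genes, 16 residual degrees of freedom). A gene is called at a Benjamini-Hochberg adjusted p under 0.05 over all genes. A standard error is the log2 fold change divided by the root of F. The fit and the permutation tests were tested on simulated data. DESeq2 1.42.0, limma 3.58.1, other scalings and filters and leaving out each library were alternatives. No replicate pair agreed within counting noise. The members and gene lists were chosen with earlier results of these data known. Named genes are the members, up to 4 called genes per list and comparison by adjusted p, protein-coding neighbours within 200 kb, the 5 most alike genes per member, and Vav1. Some genes of these lists are not reported here. The effects of Bhlhe41 and Klf9 outside these were named after their values were seen. Promoters are from RefSeq and matched 2 of the 3 genes.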

Additional observations from a re-analysis of the deposited data

Results flagged for a closer look

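The genotype effect on Nr1d1 differed among the 4 populations (edgeR adjusted p = 0.022) and was larger in ILC1 than in NKp46 by 1.52 on the log2 scale. The effect on Bhlhe41 differed among them too (edgeR adjusted p = 7.0e-07), with 89.9, 270.1 and 209.6 CPM in NKp46, CCR6 and DN libraries labelled DKO, against 2.29 CPM in ILC1 libraries labelled DKO. The Thra counts per 1000 Nr1d1 counts moved one way in ILC1, with a log2 difference of -1.69, DKO minus WT (-0.98 without WT ILC1 replicate 2), and the other way in NKp46 (0.66) and CCR6 (0.41), in every library. That difference between populations was not tested.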

How the results depend on the processing

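Each of the 3 mean effects over populations kept its direction and call under every alternative run, which were 2 other scalings, no filter on low counts, DESeq2, limma voom, the replicate blocks and leaving out each library. Fitting only the groups compared ended the calls of Nr1d1 in ILC1 (2.34, adjusted p = 0.081) and Nr1d2 in ILC1 (1.98, adjusted p = 0.51) and called Nr1d2 in NKp46 (1.02, adjusted p = 0.0029). There the number of genes called was 11 in ILC1, 1723 in CCR6 and 1330 in DN. Without a filter Nr1d2 lost the call in CCR6 (1.54, adjusted p = 0.070), in DN (1.59, adjusted p = 0.070) and among WT populations (adjusted p = 0.053). Among WT populations limma voom gave Nr1d2 an adjusted p of 0.061. The cause of these changes was not tested.

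DESeq2 called 722 genes for ILC1, 1692 for NKp46, 1330 for CCR6 and 1033 for DN, and limma voom 1717 in CCR6 and 1072 in DN. The groups carry the same replicate numbers. Deviations of same-numbered libraries of a population correlated at -0.011 to 0.053 over 12 pairs, and those of the same genotype and number at -0.026 to 0.077 over 36 pairs. The median over the 36 pairs was 0.037, and none passed 0.1. Whether same-numbered libraries share an animal is not settled by this. The labels do not say that a number marks an animal, so the main fit did not pair libraries by number. With the replicate block by number, the effects of the 3 genes kept their calls. With a random block by genotype and number, limma voom called 1728 genes in CCR6 and 1074 in DN and gave Nr1d2 among WT populations an adjusted p of 0.055.

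Leaving out each library in turn gave Nr1d1 0.72 to 0.87 in NKp46, Nr1d1 an adjusted p of 2.0e-04 to 0.066 for any difference among the genotype effects, Nr1d2 1.32 to 1.78 in CCR6, Nr1d2 1.30 to 1.88 in DN, Thra 0.47 to 1.06 in ILC1, Thra an adjusted p of 0.0011 to 0.061 for any difference among the DKO populations, 145 to 665 genes called in ILC1, 529 to 1388 genes called in NKp46 and 357 to 918 genes called in DN. The effect of Bhlhe41 in ILC1 was negative when only the groups compared were fitted (-0.077), in DESeq2 (-0.051) and without DKO ILC1 replicate 3, WT ILC1 replicate 1 or WT ILC1 replicate 3, within a range of -0.62 to 0.70 over all libraries left out in turn. The count for ILC1 was 145 without DKO ILC1 replicate 3 and 665 without WT ILC1 replicate 3. The NKp46 count was 1388 without WT ILC1 replicate 2 and 529 to 554 without DKO NKp46 replicate 2 or any WT NKp46 replicate. The DN count was 918 without WT ILC1 replicate 2 and 357 without DKO DN replicate 2. As a rank correlation, likeness to the members was 0.80 to 0.95. This, the ratios of single populations and the correlations between members with a library left out were added after seeing the data. The group ranges of Thra and Nr1d2 counts were lowest in WT ILC1, at 239 to 510 counts per library for Thra and 233 to 1281 for Nr1d2.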
